A study of Bos taurus with 10 samples.

Results

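Glucocorticoid-responsive genes and metallothioneins were described in longissimus dorsi, the long back muscle that gives the loin, of 10 Hanwoo, a Korean beef breed. The set was listed by name, with earlier results of these data known, and held 8 genes: FKBP5, TSC22D3, SGK1, KLF9, ZBTB16, CEBPD, MT2A and MT1E. A gene counted as measured when at least 1 probe set carried its symbol, and no other symbol, in the annotation of the array. By this rule 5 of the 8 genes were measured, FKBP5, SGK1, ZBTB16, CEBPD and MT2A, by 9 probe sets, out of 9155 named genes in the series. TSC22D3, KLF9 and MT1E were not measured.

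Poly(A) RNA from each muscle sample was hybridized to 1 GeneChip Bovine Genome Array. All 10 samples form 1 group, with no treatment, genotype or comparison group, and they are called animals 1 to 10 after the numbers in their titles. The label of animal 1 gives an age of about 2 years. The study related the profiles to beef traits of the same cattle, and those traits were not used here, so the values below describe how the genes differed from animal to animal.

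Cortisol and other glucocorticoids cross the cell membrane and bind the glucocorticoid receptor, the product of NR3C1, which then moves to the nucleus and raises or lowers transcription of its targets. In skeletal muscle this pathway is known for its part in protein breakdown, fuel choice and the response to stress and fasting. FKBP5 encodes a co-chaperone that binds the receptor complex and lowers its affinity for hormone, which makes it a feedback target. SGK1 encodes a kinase that regulates ion transport and cell survival, ZBTB16 and CEBPD encode transcription factors, and TSC22D3 and KLF9, which were not measured, encode the leucine zipper protein GILZ and a Krüppel-like factor. Metallothioneins such as MT2A are small cysteine-rich proteins that bind zinc and copper. Their genes are induced by metals through the factor MTF1 and also by glucocorticoids.

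Levels are given as log2 of the deposited intensity plus 16, quantile normalized across the arrays, so that a difference of 1 is a doubling, and differences of dim genes are understated. The brightest probe set stood for each gene, and a gene was tested when its mean level lay above 6.98, which is the median over the 24016 probe sets that are not controls. All 5 measured members passed, among 6271 tested genes. Levels of different probe sets were not compared with each other, since each probe set has its own affinity. In whole muscle, fewer cells of a type and less RNA per cell cannot be told apart. The 10 skeletal muscle markers tested (of 11 listed, including CKM and MYH7) had mean levels between 15.34 and 16.05. Animal 5 stood apart in some of the array's own controls. Its 3′ minus 5′ difference of the spiked poly(A) controls was 2.80, against 1.09 to 1.38 in the other animals, and that of GAPDH was 0.70 against -0.29 to 0.17. That of actin, at -0.17, lay within the -0.36 to -0.05 of the others. Its hybridization controls, at a mean log2 of 12.65, also lay within the 11.18 to 13.14 of the others. Animal 5 also had the highest level of 1321 tested genes (21.1%) and the lowest of 1728 (27.6%). The main results are therefore also given without animal 5, and the part of RNA or labelling quality in its values was not tested.

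FKBP5 varied more between the animals than most genes. Its intensity as deposited was lowest at 102 in animal 5, had a median of 292 and was highest at 527 in animal 1. On the log2 scale its level was 8.26 ± 0.69 (SD, n = 10), from 6.98 in animal 5 and 7.35 in animal 8 to 9.11 in animal 1. Animals 3, 9 and 10 lay close below animal 1, at 8.85, 8.76 and 8.86. The span from animal 5 to animal 1 was 4.39-fold, and the SD was at percentile 92.8 of the tested genes, whose median SD was 0.36. Without animal 5 the SD was 0.55, at percentile 89.3.

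By its brightest probe set, SGK1 was highest in animal 5 and varied in the other 9 about as much as the middle tested gene. Its brightest probe set read an intensity of 487 in animal 7, a median of 698 and 2343 in animal 5. Its level was 9.62 ± 0.63 (SD, n = 10), and animal 5 at 11.18 stood above the other animals, which ranged from 8.98 to 9.91. Without animal 5 the SD fell from 0.63 to 0.32, which moved it from percentile 89.8 to percentile 54.0 of the tested genes.

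ZBTB16, the promyelocytic leukaemia zinc finger factor, was the steadiest of the 5. Its intensity ran from 800 in animal 5 through a median of 1245 to 1580 in animal 10. The level was 10.25 ± 0.33 (SD, n = 10), with the lowest value, 9.64, in animal 5 and the highest, 10.66, in animal 10. That is a 2.03-fold span, and its SD was at percentile 41.8, below the middle of the tested genes. The SD without animal 5 was 0.27, at percentile 38.1.

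CEBPD, which encodes a C/EBP factor that responds to glucocorticoids and to inflammatory signals, had the widest spread of the 5. Its intensity was 1697 at the lowest, 4782 at the median and 8565 at the highest. The level was 12.11 ± 0.75 (SD, n = 10). It was low in animals 6 and 8, at 10.77 and 10.86, while the other animals lay between 12.03 and 13.17, the highest being animal 2. The span was 5.28-fold, and the SD stood at percentile 95.1 with animal 5 and at 96.7 without it.

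MT2A differed less. Its intensity had a lowest value of 651 in animal 2, a median of 952 and a highest value of 1617 in animal 3. The level was 9.99 ± 0.41 (SD, n = 10), from 9.33 to 10.67, a 2.52-fold span and an SD at percentile 62.2. Animal 5, at 9.54, was the second lowest. The SD of MT2A without animal 5 was 0.40, at percentile 72.4, above the 0.32 of the brightest SGK1 probe set.

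**Figure D1:**
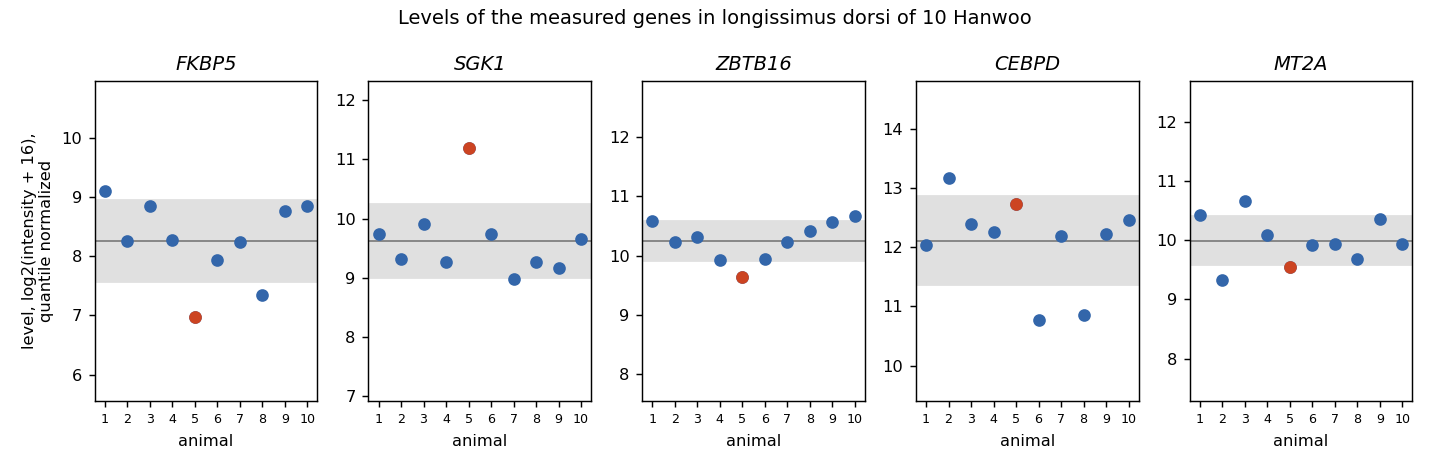
Level of each measured gene (vertical axis, log2 of intensity + 16, quantile normalized, with panels of equal height in log2 units) in each of the 10 animals (horizontal axis); the line is the mean, the grey band 1 SD either side, and animal 5 is red. Animal 5 is the lowest for FKBP5 (6.98) and ZBTB16 (9.64) and the highest for SGK1 (11.18), and animals 6 and 8 are low for CEBPD.

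SGK1 and CEBPD have 3 probe sets each, which allowed the spread to be read more than once in the same RNA. For CEBPD the brightest and second brightest probe sets followed each other closely (r = 0.959, permutation p = 3e-05; rho = 0.952, permutation p = 0.00014). This pair passed the threshold after Benjamini-Hochberg adjustment over all 6466 pairs of probe sets of the same gene on the array (adjusted p = 0.0190), as did 1.9% of those pairs, whose median r was 0.118 with quartiles of -0.173 and 0.417. Without animals 6 and 8, the farthest from the median, r was 0.920. The second probe set spanned 11.9-fold, from 6.84 in animal 6 to 10.42 in animal 2. The third and dimmest CEBPD probe set had r = 0.746 with the first (permutation p = 0.0170; adjusted p = 0.218), and r = -0.102 without animals 6 and 8, so that relation rests on those animals. Animals 6 and 8 were the lowest of the 10 on all 3 CEBPD probe sets.

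For SGK1 the first and second probe sets had r = 0.763 (permutation p = 0.00205; rho = 0.830, permutation p = 0.00505), which did not pass after adjustment (adjusted p = 0.0745). Both placed animal 5 highest and animal 7 lowest, but the second put animal 6, at 8.77, beside animal 5, at 8.84. The second also spread more in the other animals, with an SD of 0.50 without animal 5, against 0.32 for the first. The third SGK1 probe set had a mean of 4.58, below the level required for testing, and ran against the first (r = -0.363, adjusted p = 0.728) and the second (r = -0.437, adjusted p = 0.649), neither past the threshold. The distance of animal 5 from the other animals in SGK1 is thus that of the brightest probe set.

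**Figure D2:**
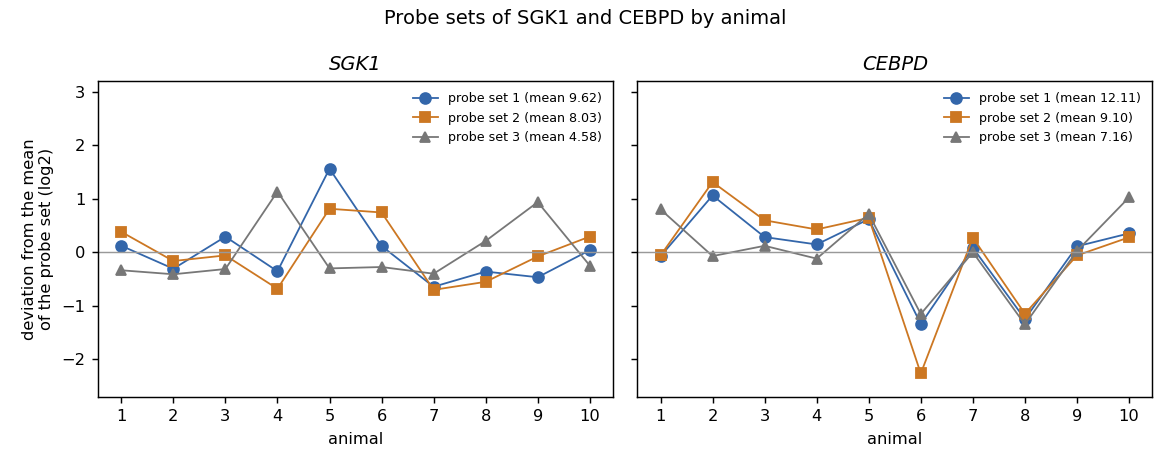
Deviation of each probe set from its own mean (vertical axis, log2) in each animal (horizontal axis) for SGK1 and CEBPD, numbered from brightest to dimmest. The 3 CEBPD probe sets all drop in animals 6 and 8, whereas the dimmest SGK1 probe set (mean 4.58) does not rise in animal 5.

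Whether the members varied together was asked for all 10 pairs, with Pearson's r, Spearman's rho and, in both directions, limma's fit of all tested genes on the level of 1 member. A pair was called when the larger of its adjusted p-values was below 0.05. Of the 10 pairs, 0 were called, against 0% of all 6270 other genes called in the fits on FKBP5, ZBTB16, CEBPD and MT2A and 5.06% in the fit on SGK1. At an unadjusted permutation p below 0.05 there were 2 pairs, both with FKBP5. By limma's unadjusted p, 20.6% of all other genes were below 0.05 in the fit on FKBP5. The share was 24.2% on SGK1, 19.8% on ZBTB16, 3.81% on CEBPD and 4.88% on MT2A. In all, 20 relations of a member with another member, with NR3C1 or with a metallothionein gene or MTF1 were computed. For a gene that is not a member, the adjusted p is only that of the fit on the member. It cannot be set beside the larger adjusted p given for a pair of members.

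FKBP5 and ZBTB16 rose and fell together in part of the animals (r = 0.709, permutation p = 0.0222; rho = 0.709, permutation p = 0.0266; adjusted p = 0.185). Leaving out animals 5 and 8, the farthest from the FKBP5 median, gave r = 0.857, and leaving out animal 5 alone gave 0.494. FKBP5 and MT2A had r = 0.707 (permutation p = 0.0228; rho = 0.721, permutation p = 0.0240; adjusted p = 0.851), with 0.634 without animals 5 and 8 and 0.654 without animal 5. Animals 1 and 3, both high in FKBP5, also had the highest MT2A levels, 10.42 and 10.67.

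FKBP5 and SGK1, both textbook targets of the receptor, had r = -0.421 in the 10 animals (permutation p = 0.231; rho = 0.091, permutation p = 0.813; adjusted p = 0.40) and r = 0.416 without animal 5. SGK1 and ZBTB16 likewise turned from -0.526 to 0.114. Of the 10 pairs, 5 had r above 0 with all animals and 9 without animal 5, and 6 changed sign. Without animal 5 the 1 pair below 0 was SGK1 and CEBPD, at -0.108 against 0.203 with all animals. CEBPD went with none of the others past the threshold: its r was 0.248 with FKBP5, -0.037 with ZBTB16 and -0.106 with MT2A. The last was -0.786 when animals 6 and 8 were left out, so the value with all animals rests on them.

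**Figure D3:**
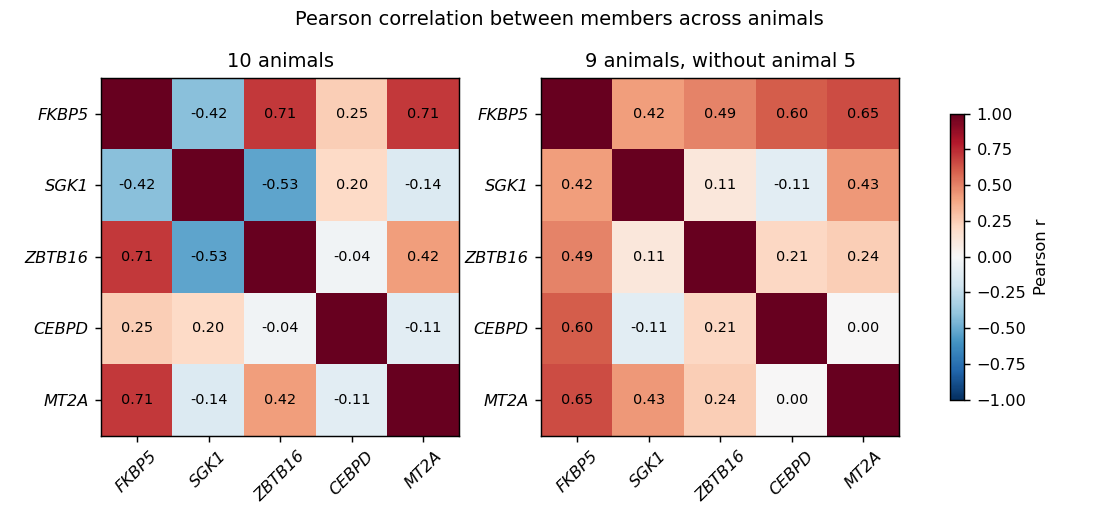
Pearson correlation (colour and printed value) between the levels of the 5 measured genes across all 10 animals (left) and the 9 animals without animal 5 (right). With all animals 5 of 10 pairs are above 0, and without animal 5 the number is 9; no pair passed the threshold over all genes with all 10 animals.

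The receptor gene NR3C1 was tested against each member. Its level was 9.88 ± 0.51 (SD, n = 10), lowest at 9.08 in animal 9 and highest at 11.05 in animal 5, where the next highest animal was at 10.23. NR3C1 was thus highest in the animal with the most SGK1 and the least FKBP5 and ZBTB16. Its r with FKBP5 was -0.791 (permutation p = 0.00419; rho = -0.515, permutation p = 0.133). The slope was -0.40 log2 units per SD of FKBP5 (SE 0.11, limma adjusted p = 0.111), and r was -0.588 without animal 5 and -0.310 without animals 5 and 8. With SGK1 its r was 0.732 (permutation p = 0.0458; rho = 0.358, permutation p = 0.310; adjusted p = 0.0757), and 0.081 without animal 5. With the filter on dim genes raised to the 75th percentile, and so fewer genes to adjust over, NR3C1 passed on SGK1 (adjusted p = 0.0438). For ZBTB16 the value was -0.696 (permutation p = 0.0219; rho = -0.515, permutation p = 0.132; adjusted p = 0.164), and -0.383 without animal 5. CEBPD (r = 0.039) and MT2A (r = -0.504) did not pass either. The relations of NR3C1 with FKBP5, SGK1 and ZBTB16 rest in large part on animal 5. A second, dimmer NR3C1 probe set, with a mean of 5.79, below the level required for testing, was also highest in animal 5, at 6.69. Animal 7 came next there, at 6.24. The r of this probe set with the first was 0.623 (permutation p = 0.0593, adjusted p = 0.401). It was 0.011 without animals 5 and 9, the farthest from the median of the first.

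No probe set was named MT1E, but the locus behind MT2A was covered more widely. In the RefSeq table of the ARS-UCD2.0 assembly, used here for names and gene order, MT1A, LOC768319, LOC613358, MT2A and MT3 follow each other on 1 chromosome with 0 other genes listed between neighbours. The first 3 of these carry MT1E as a synonym, and MT1A and LOC613358 have a probe set. Which of them corresponds to the human gene called MT1E was not tested, and neither was cross-hybridization between these similar genes.

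MT1A, a zinc- and copper-binding metallothionein like MT2A, had one of the widest spreads on the array. Its intensity was 163 in animal 2, 617 at the median and 1811 in animal 3. The level was 9.07 ± 1.14 (SD, n = 10), from 7.54 in animal 2 to 10.61 in animal 7 and 10.83 in animal 3, a 9.80-fold span and an SD at percentile 99.3. MT3, best known from brain, had a level of 7.51 ± 0.92 (SD, n = 10), from 5.48 in animal 10 to 9.03 in animal 7. LOC613358 had 7.56 ± 0.66 (SD, n = 10), from 6.48 in animal 9 to 8.35 in animal 1.

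MT2A and MT1A shared much of their order of animals (r = 0.756, permutation p = 0.0123; rho = 0.794, permutation p = 0.00895), and both had their lowest value in animal 2 and their highest in animal 3. The slope was 0.86 log2 units of MT1A per SD of MT2A (SE 0.22, limma adjusted p = 0.851), so the relation did not pass over all genes. It was 0.709 without animal 5 and 0.497 without animals 2 and 3, the farthest from the MT2A median. Animal 7 parted the genes: MT1A was high there, at 10.61, while MT2A was at 9.94, its median. With MT3 the r of MT2A was 0.088 and with LOC613358 0.324, neither past the threshold (adjusted p = 0.968 and 0.851). MTF1, the metal-sensing factor, had a level of 7.12 ± 0.49 (SD, n = 10) and an r of -0.037 with MT2A (adjusted p = 0.984). FKBP5 and MT1A had r = 0.575 (permutation p = 0.0839; rho = 0.430, permutation p = 0.220; adjusted p = 0.198 in the fit on FKBP5 only).

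**Figure D4:**
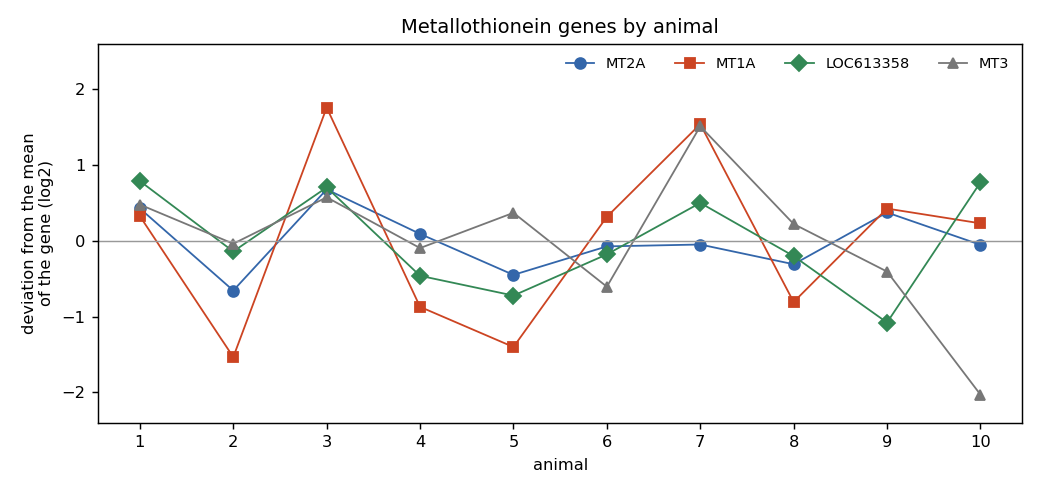
Deviation of 4 metallothionein genes from their own means (vertical axis, log2) in each animal (horizontal axis). MT2A and MT1A are both lowest in animal 2 and highest in animal 3, whereas MT1A (10.61) and MT3 (9.03) are high in animal 7 and MT2A (9.94) is not.

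Animals 3 and 7 were also the highest for most of the tested acute phase genes, which encode plasma proteins made mainly in liver. HP, which encodes haptoglobin, had a level of 11.73 in animal 3 and 11.54 in animal 7, against 4.35 to 8.36 in the others. Animals 3 and 7 were the highest pair for 6 of 7 tested acute phase genes, for 3 of 13 zinc and metal genes (MT1A, MT3 and the zinc importer SLC39A14) and for 0 of the 5 members, against 3.05% of all tested genes. The exception among the 7 was ALB, which encodes albumin and has 9 probe sets. Only the brightest was read, at 10.75 in animal 3 and 10.73 in animal 7, the lowest levels after the 10.24 of animal 5. These animals and genes were singled out after their values were seen. A gene was tested by its mean over all 10 animals, so high values in animals 3 and 7 helped dim genes to pass. The acute phase genes HP, TF and VTN had medians of 6.91, 6.65 and 6.78, below the 6.98 required of the mean. FGG, C3, ITIH4 and ALB had medians of 7.69, 10.41, 8.50 and 11.19, above it. The count of 6 of 7, set against 3.05%, is thus in part built in by the filter. What links the acute phase genes to the metallothionein levels was not tested. Without animals 3 and 7 the slope of MT1A on MT2A was 0.68 (adjusted p = 0.687), against 0.86 with all animals.

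Each member's level was next used as the covariate of all 6270 other tested genes, to ask which genes went with it. On FKBP5, limma called 0 genes at an adjusted p below 0.05, with 1292 (20.6%) at an unadjusted p below 0.05 and a smallest adjusted p of 0.0570. A Spearman correlation per gene called 45. The count depended on single animals: leaving out animal 8 gave 330 genes (241 with a positive slope), animal 3 gave 4, animal 6 gave 3, and animal 7 or 9 gave 1. With animal 5 left out it was 0, and 357 genes passed unadjusted. The genes most like FKBP5 across the 10 animals were TIMM23 (r = 0.978, adjusted p = 0.141), a subunit of the mitochondrial inner membrane import channel, TPST1 (r = 0.971, adjusted p = 0.110), a tyrosylprotein sulfotransferase, and SRSF7 (r = 0.965, adjusted p = 0.0570), a splicing factor. Their r without animal 5 was 0.968, 0.949 and 0.942. By limma, with all animals and quantile normalization, 0 of the 3 passed, whereas SRSF7 passed with the deposited scaling (adjusted p = 0.0397). Limma's SE for a gene also draws on the variance of the other tested genes. A high r in a gene with a small SD therefore need not pass. For TIMM23 the SD was 0.20 and the slope 0.20 (SE 0.066). Whether the 3 were among the 45 genes called by Spearman was not examined. Leaving out animal 8, SRSF7 (adjusted p = 0.0301) and TPST1 (adjusted p = 0.0495) passed.

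On ZBTB16, limma called 0 genes, with 1243 (19.8%) unadjusted, and the Spearman correlation called 3. Without animal 4 limma called 137, and without animal 5 it called 0, with 458 unadjusted. The closest genes were PAICS (r = 0.937, adjusted p = 0.131), an enzyme of purine synthesis that passed without animal 4 (adjusted p = 0.0433), SAE1 (r = 0.921), a subunit of the SUMO-activating enzyme, and PLPP2 (r = 0.904), a lipid phosphate phosphatase. On CEBPD, limma and Spearman each called 0, with 239 genes (3.81%) unadjusted by limma. The closest were SLC25A33 (r = 0.889, adjusted p = 0.543), a mitochondrial pyrimidine nucleotide carrier, IFRD1 (r = 0.852, adjusted p = 0.543) and FAM107A (r = 0.852, adjusted p = 0.998). On MT2A both methods also called 0, with 306 genes (4.88%) unadjusted by limma. EIF2B3 (r = 0.921), a subunit of a translation initiation factor, VSIR (r = 0.835), an immune checkpoint receptor, and MGST1 (r = 0.830), a microsomal glutathione transferase, were the closest, each at an adjusted p of 0.851.

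On SGK1, limma called 317 genes (5.06%) after adjustment and 1520 (24.2%) without it, 72 of the 317 with a positive slope (1.15%) and 245 with a negative one (3.91%). Since SGK1 in animal 5 lay far from the other animals, these slopes mainly set animal 5 against the rest. Without animal 5, 0 genes were called, with 260 unadjusted, and the smallest adjusted p was 0.999. The count was also 0 without animal 4 or animal 9 and by the Spearman correlation, 8 without animal 2 or animal 8, and 495 without animal 3. It was 0 too once the 3′ minus 5′ difference of the spiked controls was added as a second covariate. That difference was 2.80 in animal 5 and 1.09 to 1.38 in the others, so this covariate nearly marks animal 5. It is therefore no separate check from leaving that animal out, and it cannot test RNA quality.

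Among the genes called with SGK1, the largest positive slopes per SD of SGK1 were those of EGR1 at 1.34 (SE 0.28, adjusted p = 0.0367), an immediate early transcription factor, of NR4A2 at 0.92 (adjusted p = 0.0406), an orphan nuclear receptor, of CCN1 at 0.81 (adjusted p = 0.0367), a matricellular protein, and of NFIB at 0.74 (adjusted p = 0.0279), a nuclear factor I protein. In animal 5 the level of EGR1 was 13.85, and in the others it ran from 7.73 to 11.02. The largest negative slopes were those of ADGRE5 at -0.97 (adjusted p = 0.0327), an adhesion receptor of leukocytes, GSTM3 at -0.88 (adjusted p = 0.0437), a glutathione transferase, FRMD3 at -0.86 (adjusted p = 0.0381) and PLIN2 at -0.85 (adjusted p = 0.0279), a lipid droplet coat protein. Without animal 5 the r of EGR1 with SGK1 went from 0.815 to 0.394, that of NR4A2 from 0.776 to 0.372, that of CCN1 from 0.814 to 0.434 and that of FRMD3 from -0.785 to 0.256. For NFIB, ADGRE5, GSTM3 and PLIN2 it was then 0.667, -0.585, -0.674 and -0.629. The genes closest to SGK1 by r were RAB14 (0.956, adjusted p = 0.0367), a vesicle traffic GTPase, ST13 (0.954, adjusted p = 0.0288), a co-chaperone of HSP70, and PPM1D (0.938, adjusted p = 0.0379), a protein phosphatase. Their r without animal 5 was 0.829, 0.783 and 0.796.

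**Figure D5:**
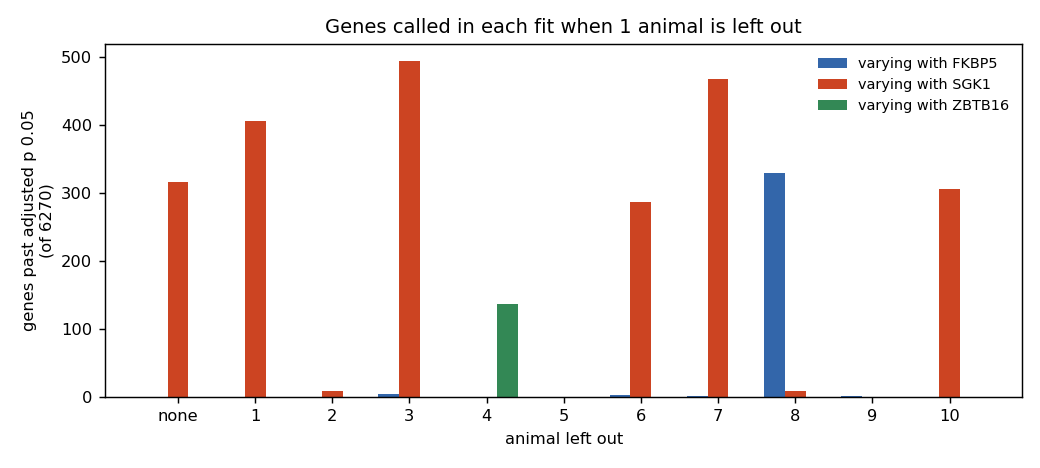
Number of genes past an adjusted p of 0.05 (vertical axis) in limma's fit on FKBP5, SGK1 or ZBTB16 with no animal left out or with 1 animal left out (horizontal axis). The SGK1 count goes from 317 to 0 without animal 4, 5 or 9, and the FKBP5 count from 0 to 330 without animal 8.

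The other genes of hormone action and of metal handling were read from fixed lists. Of 14 genes of glucocorticoid action (the receptors, the enzymes that activate or inactivate cortisol, and the chaperones and co-regulators of the receptor), 10 were measured and 8 tested. The cortisol-activating HSD11B1 and the inactivating HSD11B2 were measured at means of 6.88 and 5.98, below the level required for testing. On FKBP5, 0 of the 8 were called. Their median slope was 0.01, equal to that of all genes, between -0.40 for NR3C1 and 0.23 for STIP1 (adjusted p = 0.315), a co-chaperone that links HSP70 and HSP90. On MT2A again 0 were called, between -0.26 for NR3C1 and 0.15 for STIP1.

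Of 32 other targets of the receptor, 23 were measured and 20 tested. On FKBP5, 0 of 20 were called, and 12 had a slope above 0, against 53.0% of all genes. The median slope was 0.12, against 0.01 for all genes. The ends were MSTN at -0.43 (adjusted p = 0.289), which encodes the inhibitor of muscle growth myostatin, and CDKN1A at 0.63 (adjusted p = 0.179), which encodes the cell cycle inhibitor p21. They were -0.23 and 0.72 without animal 5. On MT2A the ends were MSTN at -0.42 and PIK3R1, a regulatory subunit of PI3 kinase, at 0.43, with 0 called. On SGK1 0 of 20 were called, with a median slope of -0.07 against -0.02 for all genes, and the median turned to 0.11 without animal 5. These targets did not move as 1 block in animal 5. Of the 20, 8 were highest there (DUSP1, PDK4, GLUL, DDIT4, ERRFI1, SLC38A2, MYC and MSTN) and 4 were lowest (NFKBIA, PIK3R1, ANGPTL4 and SESN1), against 21.1% and 27.6% of all tested genes, and they are named here after their values were seen. DUSP1, a phosphatase of MAP kinases, was at 14.10 in animal 5 and from 12.04 to 13.54 in the others. DDIT4, an inhibitor of mTORC1 signalling, was at 15.15 against 12.46 to 14.74.

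Of 20 genes of zinc and metal handling, 15 were measured and 13 tested. On MT2A 0 of 13 were called, with a median slope of 0.04 against 0.01 for all genes. The ends were HMOX1, haem oxygenase 1, at -0.44 (adjusted p = 0.851) and MT1A at 0.86. On FKBP5 the ends were SLC39A7, a zinc exporter of the endoplasmic reticulum, at -0.25 and MT1A at 0.65, with 0 called. Of 16 acute phase genes, 14 were measured and 7 tested. All 7 had a slope above 0 on FKBP5 (median 0.52) and on MT2A (median 0.43), and 0 were called on either. Of all genes, 53.0% had a slope above 0 on FKBP5 and 54.0% on MT2A, with a median of 0.01 on both. Animals 3 and 7 were the highest pair for 6 of the 7, so these are not 7 separate relations. HP was at the upper end both times, at 1.44 per SD of FKBP5 (adjusted p = 0.179) and 1.39 per SD of MT2A (adjusted p = 0.851). Without animal 5 the medians were 0.26 and 0.27, and the slopes of HP 0.998 and 1.10. The lower ends were ITIH4 on FKBP5 at 0.13 and ALB on MT2A at 0.11.

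Of 12 tested immediate early genes (16 listed, 12 measured), 2 were called with SGK1, EGR1 and JUN at 0.63 (adjusted p = 0.0428), and both were highest in animal 5. Of all genes, 5.06% were called with SGK1, and 1.15% with a positive slope. The 12 did not go with SGK1 as a set: 6 had a slope above 0, and the median slope was 0.01. The r of JUN with SGK1 went from 0.785 to 0.252 without that animal. None of the other lists held a gene called with SGK1 except the adipocyte markers, where CIDEA, a lipid droplet protein, had a slope of -0.61 (adjusted p = 0.0367). CIDEA was at 5.59 in animal 5 and from 7.34 to 8.27 in the others, and its r with SGK1 went from -0.815 to -0.078 without that animal. On FKBP5 the immediate early genes ran from EGR1 at -1.08 (adjusted p = 0.141) to ZFP36 at 0.45 (adjusted p = 0.198), or -0.30 and 0.35 without animal 5. On MT2A they ran from ATF3 at -0.83 to ZFP36 at 0.08, with 0 called.

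Marker genes of the cell types that a muscle sample can hold were set beside these results. On FKBP5 and on MT2A, 0 of the 10 skeletal muscle, 10 adipocyte, 8 leukocyte, 10 endothelial and smooth muscle and 10 fibroblast markers tested were called. The muscle markers had a median slope of 0.01 on both, with ends at MYH7 (-0.02) and TNNC2 (0.08) on FKBP5 and at CKM (-0.01) and TNNC2 (0.09) on MT2A. They lie at the top of the array, where quantile normalization leaves little room to differ. Their median SD was 0.08, against 0.36 for all genes, so these slopes cannot say how much muscle a sample held. With the deposited scaling they were 0.12 and 0.22 on FKBP5 and 0.14 and 0.20 on MT2A, in the same order. Adipocyte markers had medians of 0.15 on FKBP5 and 0.27 on MT2A, and of 0.06 and 0.20 without animal 5. Their ends on FKBP5 were LPL at -0.41 and FABP4 at 0.51, which were -0.048 and 0.05 without animal 5. LPL passed on FKBP5 without animal 8 (slope -0.68, adjusted p = 0.0453). On MT2A the ends were LPL at -0.36 and FABP4 at 1.10 (adjusted p = 0.851), and -0.17 and 0.94 without animal 5. Leukocyte markers had medians of 0.21 and 0.22, from CD68 at -0.05 to C1QA at 0.38 on FKBP5 and from CD14 at 0.11 to C1QA at 0.55 on MT2A. Without animal 5, in which 6 of the 8 leukocyte markers were lowest, the leukocyte median on FKBP5 was 0.01 and the slope of C1QA 0.044. The smooth muscle gene TAGLN had a slope of 0.68 on FKBP5 (SE 0.11, adjusted p = 0.0570), just short of the threshold, with an r of 0.898 and of 0.842 without animal 5, where its slope was 0.38. TAGLN passed with the deposited scaling, that is without quantile normalization (adjusted p = 0.0397), and without animal 8 (adjusted p = 0.0301). RGS5, a pericyte marker, was at the other end (-0.07). On MT2A the endothelial and smooth muscle markers ran from RGS5 at 0.00 to TAGLN at 0.44. The fibroblast ends were COL1A2 at -0.39 and SPARC at 0.32 on FKBP5, and FMOD at -0.21 and SPARC at 0.42 on MT2A. Without animal 5 the slope on FKBP5 was -0.57 for COL1A2 and 0.0081 for SPARC, and the fibroblast median on MT2A turned from 0.13 to -0.04. The part of any of these cell types in the levels of the members was not tested.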

How the data were processed

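Muscle poly(A) RNA was measured on 10 one-colour Affymetrix arrays, 1 per animal. The values deposited by the authors are linear intensities, 1 per probe set; in each column the trimmed mean of the values is between 499.8 and 499.9, and no source used here names the algorithm. The 112 control probe sets were left out, 16 was added, log2 taken and the arrays quantile normalized. Of the 24016 other probe sets, 13292 carried 1 gene symbol, 86 several and 10638 none. The brightest probe set stood for a gene. Genes were fitted on the level of each member, in SD units, with limma 3.58.1 (lmFit, eBayes; R 4.3.3), with Benjamini-Hochberg adjustment over all tested genes and a threshold of 0.05. Permutation tests were two-sided with 100000 resamples (scipy 1.17.1, numpy 2.4.6). Array number limits the precision.

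Only the titles and the series' text mark the samples as separate cattle, so p-values hold as far as the samples are independent. Members, lists and tests were chosen with earlier results of these data known. Named genes were every member, NR3C1, MTF1, the 3 genes with the highest r per member, up to 4 called genes per direction with the largest slopes, called genes of the lists and, for FKBP5 and MT2A, the genes at the ends of each list. Alternatives changed the normalization, the filter, the pseudocount, the probe set rule, the quality covariate, the test and the animals.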

Additional observations from a re-analysis of the deposited data

Results flagged for a closer look

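In 2 of 16 sets of 10 values tested for a sample far from the others, animal 5 was that sample, by Dixon's criterion; chance alone flags a small share of such sets. For the brightest SGK1 probe set, animal 5 was at 11.18 and the others between 8.98 and 9.91, a gap of 0.576 of the whole range. The 3′ minus 5′ difference of the poly(A) controls was 2.80 in animal 5 and between 1.09 and 1.38 in the others, a gap of 0.831 of the range.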

How the results depend on the processing

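The number of genes varying with SGK1, 317, was 0 with no filter on dim genes, 523 with a filter at the 75th percentile, 0 when probe sets of a gene were averaged, 0 with the poly(A) covariate, 0 with Spearman's correlation and 574 without animals 3 and 7, an alternative chosen after seeing the data. For FKBP5, 0 became 11 with the deposited scaling, 1 with a pseudocount of 64, 1 with the mean of probe sets, 45 with Spearman and 3 without animals 3 and 7. FKBP5 has no value at the 75th percentile filter, since it lies below it. For ZBTB16, Spearman called 3. With the mean of probe sets the level was 7.41 for SGK1 and 9.46 for CEBPD. Leaving out 1 animal at a time gave 0 to 330 genes for FKBP5, 0 to 495 for SGK1, 0 to 137 for ZBTB16, and 0 for CEBPD, for MT2A and for pairs of members. The poly(A) covariate nearly marks animal 5, so its result is no separate check from leaving that animal out. The cause of these changes was not tested.

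Of the correlations and slopes, 633 values kept direction and side of the threshold under the alternatives other than leaving out 1 animal, 30 turned, 3 passed anew (SRSF7 and TAGLN on FKBP5 with the deposited scaling, each at an adjusted p of 0.0397, and NR3C1 on SGK1 with the filter at the 75th percentile, at 0.0438) and 41 no longer passed. Those that turned had no call. With the deposited scaling these were r of ZBTB16 and CEBPD (0.037) and the slopes of MYH7 (0.12) and CD68 (0.049) on FKBP5 and of CKM (0.14), RGS5 (-0.019) and MTF1 (0.026) on MT2A. With median centring they were r of ZBTB16 and CEBPD (0.15) and of CEBPD and MT2A (0.040), MYH7 on FKBP5 (0.032), and ALB (-0.00189), CKM (0.037), RGS5 (-0.045) and ZFP36 (-0.0011) on MT2A. A pseudocount of 1 turned RGS5 on MT2A (-0.000252). The mean of probe sets turned r of SGK1 and MT2A (0.0199), of ZBTB16 and CEBPD (0.055), of CEBPD and MT2A (0.00451), and MYH7 on FKBP5 (0.069). The poly(A) covariate turned r of FKBP5 and SGK1 (0.333), SGK1 and MT2A (0.429) and ZBTB16 and CEBPD (0.129), SPARC on FKBP5 (-0.000299), NR3C1 on CEBPD (-0.074), and ALB (-0.0197), RGS5 (-0.061), ZFP36 (-0.052) and MTF1 (0.068) on MT2A. Without animals 3 and 7, CKM (0.0195), RGS5 (-0.15) and MT3 (-0.0696) on MT2A turned.

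Leaving out 1 animal at a time, r ranged from -0.329 to 0.235 for CEBPD and MT2A, -0.031 to 0.605 for FKBP5 and CEBPD, -0.595 to 0.416 for FKBP5 and SGK1, -0.108 to 0.336 for SGK1 and CEBPD, -0.292 to 0.435 for SGK1 and MT2A, -0.647 to 0.114 for SGK1 and ZBTB16, and -0.320 to 0.207 for ZBTB16 and CEBPD. Slopes on MT2A ranged from -0.016 to 0.246 for ALB, -0.0295 to 0.0183 for CKM, -0.369 to 0.0805 for FMOD, -0.0472 to 0.15 for MT3, -0.104 to 0.0683 for MTF1, -0.134 to 0.126 for RGS5 and -0.037 to 0.267 for ZFP36. On FKBP5 they ranged from -0.330 to 0.050 for CD68, -0.309 to 0.0296 for MT3 and -0.208 to 0.0762 for RGS5, on SGK1 from -0.96 to 0.10 for FRMD3, and on CEBPD from -0.11 to 0.12 for NR3C1. Between probe sets r ranged from 0.949 to 0.976 for the CEBPD pair that passed. No paired analysis was possible because all 10 samples form 1 group.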
